A study of Mus musculus with 6 samples.

Results

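The cytoplasmic ribosomal protein genes were taken as the protein-coding rows of the count table whose symbol was Rpl or Rps with a number and at most 1 of the suffixes a, x, l or y and 1 further digit, together with Rplp0 to Rplp2 and Rpsa. The rule used symbols and biotype alone, and it found 83 of 57010 rows, 51 of the large subunit and 32 of the small subunit. The RNA came from RAW 264.7 cells, an established mouse macrophage line. All 6 samples first received lipopolysaccharide, a component of bacterial outer membranes that puts macrophages in an inflammatory state, and afterwards EVs (extracellular vesicles, small membrane particles that cells release) from tendon stem cells. In 3 samples (normoxic-EV) the stem cells had been kept in normoxia, and in the other 3 (hypoxic-EV) they had been preconditioned in hypoxia. The labels do not give the species of the stem cells. No group without vesicles was analysed here, so every difference is between the vesicle treatments. Whether a group's samples were separate cultures is not in the labels, and p-values therefore cover only the variation among these libraries, possibly technical.

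A ribosome joins a small subunit, which reads the mRNA, to a large subunit, which makes the peptide bond, and each ribosomal protein sits in it in a fixed place beside the ribosomal RNA. Nearly all are needed in equal number, and most are among the most abundant mRNAs of a growing cell. Their mRNAs start with a terminal oligopyrimidine (TOP) tract, through which the kinase mTOR and the RNA-binding protein LARP1 regulate their translation. Several of the proteins also act outside the ribosome in immune cells: RPS3 binds NF-kB, and RPL13A joins a complex that represses inflammatory mRNAs. Ribosomal protein genes also have many processed pseudogenes, copies of their spliced mRNA elsewhere in the genome, which can take up their reads.

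Library totals ran from 16751665 to 23422328 counts. All 8 macrophage markers had counts, with a summed level of 10321 to 10757 CPM (counts divided by the TMM-scaled library size) in normoxic-EV and 8338 to 8744 CPM in hypoxic-EV. Of 10 tendon and stromal markers 5 were at 0, among them Col1a2, Col3a1, Tnmd and Thbs4, and the sum was 0.897 to 1.81 CPM in normoxic-EV and 0.766 to 1.36 CPM in hypoxic-EV. The 4 T and B cell markers summed to at most 0.175 CPM, with Cd3e at 0, and the 2 erythroid markers to at most 0.051 CPM. The 4 neutrophil markers summed to 237 to 269.5 CPM in normoxic-EV and 96 to 119.6 CPM in hypoxic-EV, nearly all of it S100a8, while Ly6g had 2 counts and Mpo 13. The share of counts on the mitochondrial genome was 2.17 ± 0.054% (SD, n = 3) in normoxic-EV and 2.99 ± 0.0747% in hypoxic-EV. The part of these differences in the results that follow was not tested.

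Ribosomal protein mRNAs were on the whole slightly more abundant with hypoxic-EV, and the medians of the subunits were close. Of the 83 genes 81 passed the low-count filter, and 40 rose and 5 fell in the quasi-likelihood test of edgeR (adjusted p below 0.05 over all genes tested). Over all 13303 genes tested 22.7% rose and 21.5% fell, against 49.4% and 6.17% of the tested members. Among the 2196 protein-coding genes outside the group with a mean of at least 100 CPM, nearer to the members in level, 32.0% rose and 29.7% fell, with a median log2 fold change of 0.00. Members whose groups did not overlap numbered 39 higher and 5 lower, where 26.6% of all genes tested were higher and 26.1% lower without overlap. The median log2 fold change was 0.14 over the tested members, a 1.1-fold difference, and 0.00 over all genes tested. Without normoxic-EV replicate 2, the library with the lowest share of counts on the members, 25 members rose (16 large, 9 small) and the median was 0.12. None of the members is among the 462 genes of the authors' deposited table, where the smallest absolute log2 fold change is 1.

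**Figure D1:**
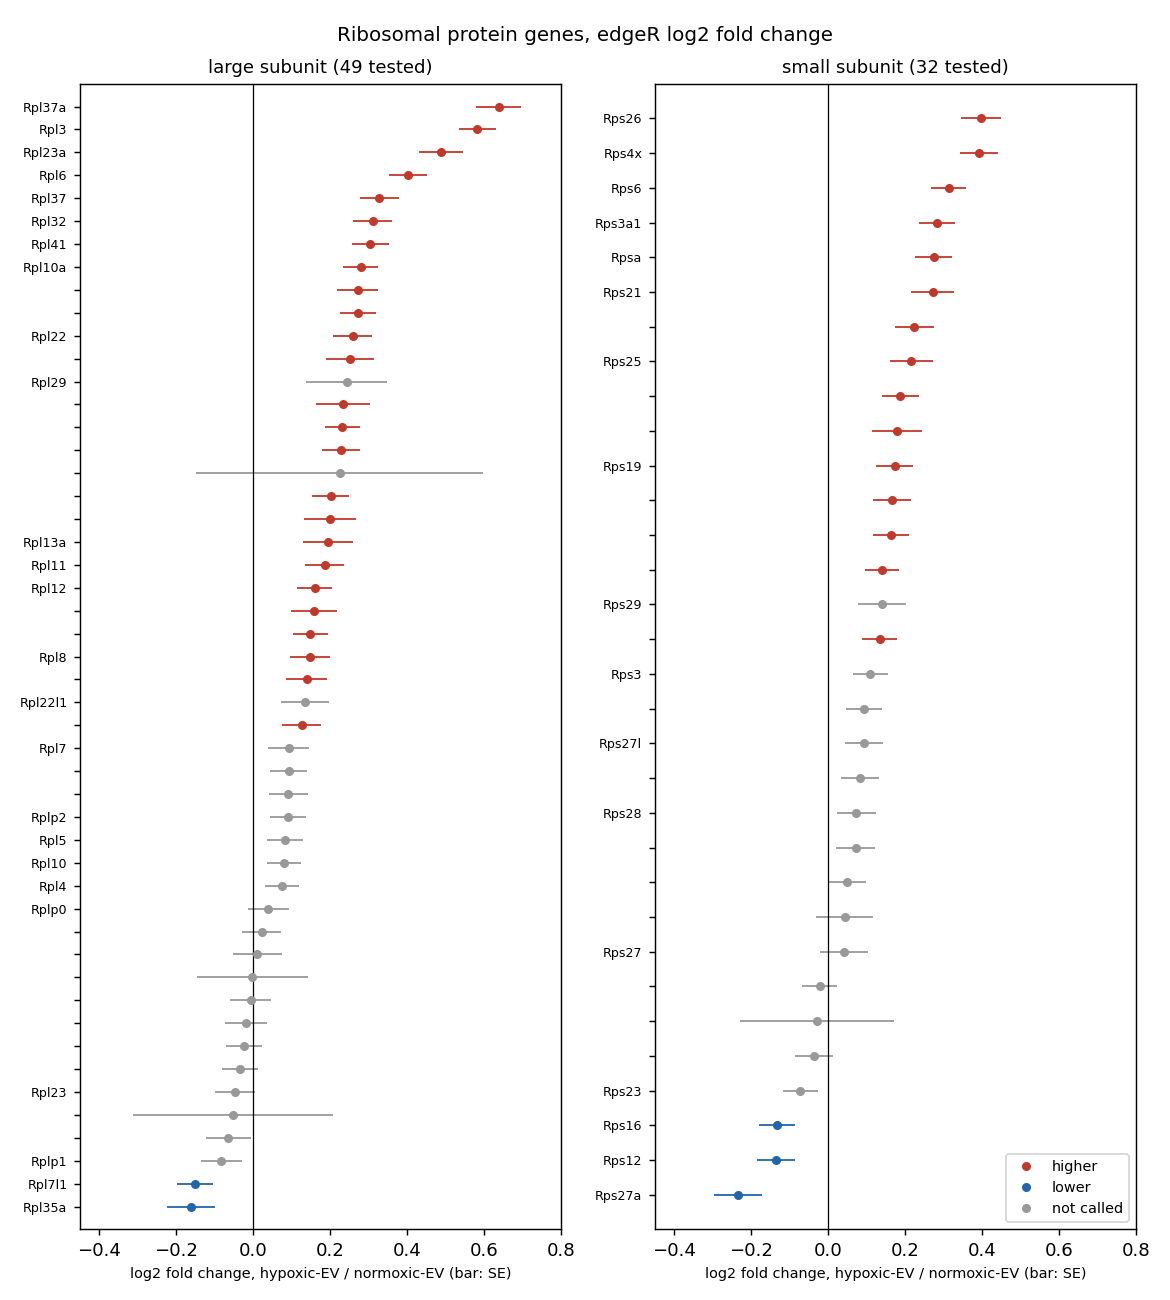
Each point is the edgeR log2 fold change of 1 ribosomal protein gene, hypoxic-EV over normoxic-EV, with its SE as the bar, for 49 tested genes of the large subunit (left) and 32 of the small subunit (right). Most genes that the text describes singly carry a label. Red points rose, blue points fell and grey points were not called; most points lie to the right of 0, from -0.23 for Rps27a to 0.64 for Rpl37a.

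Large and small subunit genes had similar shares of calls, and the difference between them was not tested. In the large subunit 25 of 49 tested genes rose and 2 fell, with a median log2 fold change of 0.15. In the small subunit 15 of 32 rose and 3 fell, with a median of 0.12. Large subunit genes took 3.14%, 3.02% and 3.06% of all counts in the normoxic-EV libraries and 3.31%, 3.36% and 3.42% in the hypoxic-EV libraries. For the small subunit the shares were 2.48%, 2.37% and 2.41% in normoxic-EV and 2.62%, 2.68% and 2.69% in hypoxic-EV. For each subunit every hypoxic-EV library lay above every normoxic-EV library. The ratio of large to small subunit counts, which no scaling of libraries can change, was 1.265, 1.273 and 1.269 in normoxic-EV and 1.263, 1.251 and 1.270 in hypoxic-EV, and the groups overlapped. Together the members took 5.49 ± 0.122% (SD, n = 3) of counts in normoxic-EV and 6.03 ± 0.0932% in hypoxic-EV. In bulk RNA, fewer cells of a kind and less RNA per cell cannot be told apart.

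**Figure D2:**
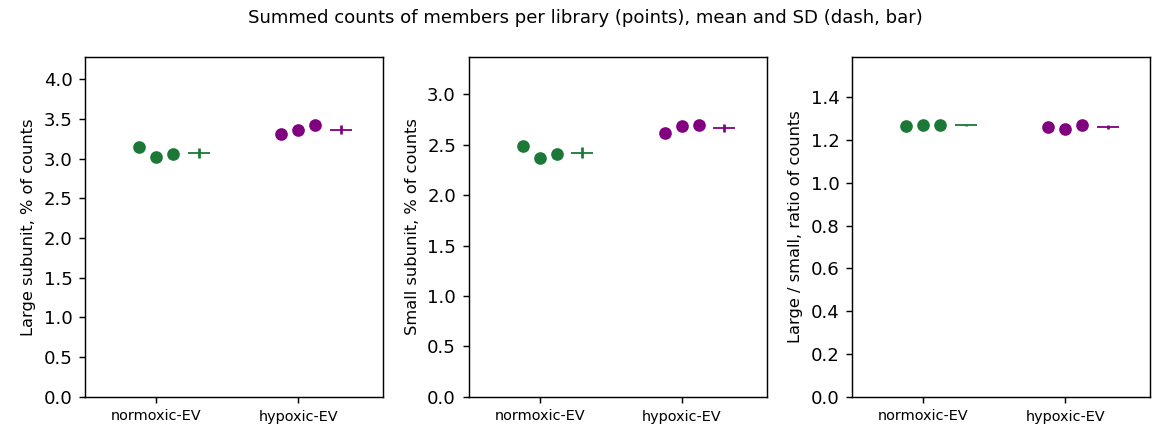
Points are the 3 libraries of each group, with the mean and SD as dash and bar beside them; the panels show the percent of all counts on large subunit genes, the percent on small subunit genes, and the ratio of the summed counts. Both shares are higher in hypoxic-EV, and the ratio lies between 1.251 and 1.273 in all 6 libraries.

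The large subunit gene that rose most was Rpl37a (ENSMUSG00000046330, chromosome 1, 72750449 to 72752972, GRCm39), which encodes a zinc-binding protein of the subunit. It stood at 277, 265 and 270.4 CPM in the normoxic-EV libraries and 372, 454 and 438 CPM in the hypoxic-EV libraries, a log2 fold change of 0.64 (SE 0.0584, adjusted p = 1.61e-08 by edgeR). The groups were far apart, and hypoxic-EV replicate 1 was the lowest of its group. Rpl3, whose protein reaches into the peptidyl transferase centre where the peptide bond forms, stood at 509.9, 488 and 511 CPM in the normoxic-EV libraries and 717, 786 and 757 CPM in the hypoxic-EV libraries. Its libraries were tight within each group and did not overlap, and its log2 fold change was 0.58 (SE 0.0473, adjusted p = 2.57e-09 by edgeR).

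Rpl23a encodes a protein at the mouth of the exit tunnel, where chaperones and the signal recognition particle dock on the nascent chain. Its level was 374, 439 and 409 CPM in the normoxic-EV libraries and 547, 612 and 554 CPM in the hypoxic-EV libraries (log2 fold change 0.49, SE 0.0568, adjusted p = 5.22e-07 by edgeR), with no overlap between the groups. Rpl6 was at 899, 847 and 927 CPM in the normoxic-EV libraries and 1133, 1217 and 1182 CPM in the hypoxic-EV libraries (log2 fold change 0.40, SE 0.0484, adjusted p = 7.94e-07 by edgeR). All hypoxic-EV values of Rpl6 exceeded those of normoxic-EV. Next in order came Rpl37, another zinc-binding protein gene, at a log2 fold change of 0.33, and Rpl32 at 0.31. Rpl41 encodes a very short peptide that bridges the subunits, and it had 0.30. Rpl10a, which encodes the protein of the mobile L1 stalk at the tRNA exit site, had 0.28. For each of these 8 genes the groups did not overlap.

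In the small subunit the gene that rose most was Rps26 (ENSMUSG00000025362, chromosome 10, 128460403 to 128462616, GRCm39), whose protein lines the mRNA exit channel and contacts the bases just before the start codon. Rps26 stood at 792, 765 and 762 CPM in the normoxic-EV libraries and 941, 1089.7 and 1025 CPM in the hypoxic-EV libraries, a log2 fold change of 0.40 (SE 0.0517, adjusted p = 2.2e-06 by edgeR). The X-linked gene Rps4x stood at 1126, 1055 and 1089.9 CPM in the normoxic-EV libraries and 1362, 1514 and 1416 CPM in the hypoxic-EV libraries (log2 fold change 0.39, SE 0.0492, adjusted p = 1.39e-06 by edgeR). In both genes every hypoxic-EV library was above every normoxic-EV library. Rps6, whose protein is the classical substrate of S6 kinase, was at 1209, 1162 and 1216 CPM in the normoxic-EV libraries and 1427, 1509 and 1519.6 CPM in the hypoxic-EV libraries (log2 fold change 0.31, SE 0.0462, adjusted p = 1.16e-05 by edgeR). Rpsa, which encodes a platform protein also known as the laminin receptor, was at 1673, 1609 and 1659.9 CPM in the normoxic-EV libraries and 1959, 1907 and 2109.8 CPM in the hypoxic-EV libraries (log2 fold change 0.27, SE 0.0483, adjusted p = 9.31e-05 by edgeR). The groups were separate in both. Rps3a1 and Rps21, a neighbour of Rpsa in the subunit, had log2 fold changes of 0.28 and 0.27, and Rps25, a protein of the subunit's head, had 0.22.

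The other members that rose did so by less. In the large subunit Rpl36a, Rpl14, Rpl22, Rpl30, Rpl26, Rpl7a, Rpl36, Rpl27, Rpl38, Rpl13a, Rpl11, Rpl12, Rpl13, Rpl28, Rpl8, Rpl17 and Rpl27a had log2 fold changes from 0.13 to 0.27. In the small subunit Rps13, Rps2, Rps19, Rps9 and Rps14 were among them, with log2 fold changes from 0.13 to 0.19. The groups overlapped in 6 members that rose, Rpl8, Rpl13, Rpl17, Rpl27a, Rpl38 and Rps2. Rpl28 overlaps Ube2s, a mitotic ubiquitin-conjugating enzyme gene on the opposite strand, which had 21.5% as many counts and rose by 0.30 on the log2 scale. Reads of such a pair cannot be told apart with certainty, because the sources used here do not give the strand setting.

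Rps27a fell most among the 5 members that fell (ENSMUSG00000020460, chromosome 11, 29495846 to 29498109, GRCm39). It encodes a small subunit protein made as a fusion with ubiquitin, so it also supplies the cell with ubiquitin. It stood at 1195, 1109 and 1067 CPM in the normoxic-EV libraries and 1044, 979 and 842 CPM in the hypoxic-EV libraries, a log2 fold change of -0.23 (SE 0.0629, adjusted p = 0.00448 by edgeR). The groups did not overlap, but the spread within each was wide beside the difference, and the adjusted p was 0.056 with DESeq2, the highest over its alternatives (lowest 0.000134). Rps12 had a log2 fold change of -0.14 (SE 0.0491, adjusted p = 0.0298 by edgeR). Rps16, whose protein contacts the tRNA in the peptidyl site, had -0.13 (SE 0.0476, adjusted p = 0.0278 by edgeR). For both, all hypoxic-EV values lay below those of normoxic-EV. Rpl35a stood at 83.8, 73.4 and 89.6 CPM in the normoxic-EV libraries and 74.4, 75.2 and 71.6 CPM in the hypoxic-EV libraries (log2 fold change -0.16, SE 0.0623, adjusted p = 0.0408 by edgeR), and its groups overlapped, with normoxic-EV replicate 2 lying among the hypoxic-EV values.

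Rpl7l1, the paralog of Rpl7, was the fifth member that fell, from 191 ± 6.74 CPM to 172 ± 4.17 CPM over 3 libraries (SD), a log2 fold change of -0.15 (SE 0.0467, adjusted p = 0.0115 by edgeR). The number of members that fell was 3 with DESeq2 and 2 without a low-count filter. It was also 2 without normoxic-EV replicate 1, without normoxic-EV replicate 3 or without hypoxic-EV replicate 1. Without each of the 6 libraries in turn the highest edgeR adjusted p was 0.0484 for Rps27a, 0.0706 for Rpl7l1, 0.163 for Rps16, 0.213 for Rps12 and 0.297 for Rpl35a. The log2 fold change was -0.15 for Rps27a without hypoxic-EV replicate 3, -0.09 for Rps12 without normoxic-EV replicate 1 and -0.09 for Rpl35a without normoxic-EV replicate 3.

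**Figure D3:**
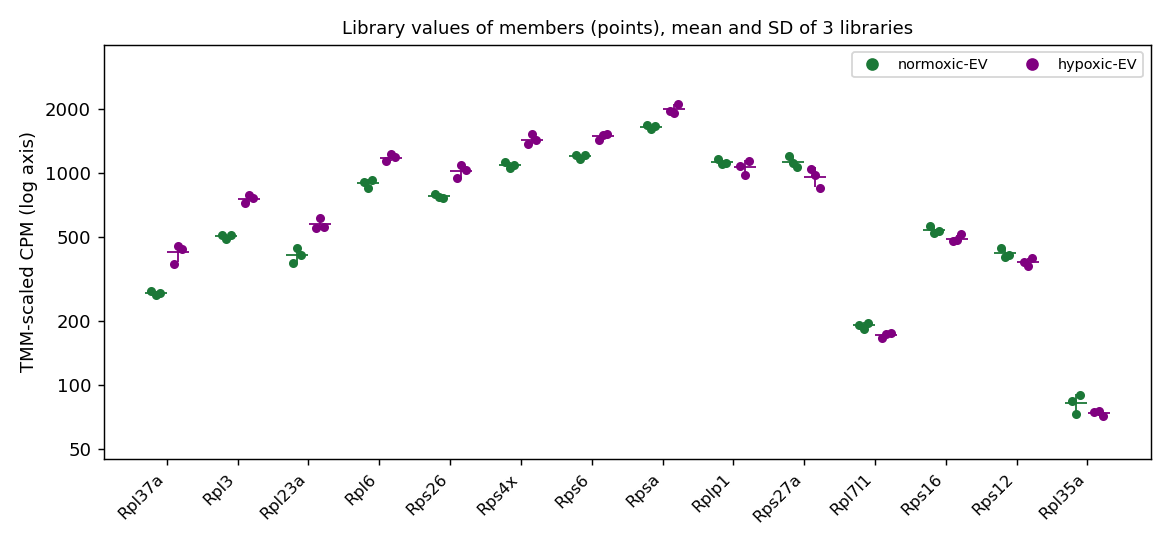
TMM-scaled CPM on a log axis for 14 members; each point is a library (green normoxic-EV, purple hypoxic-EV), with the mean and SD of 3 libraries as dash and bar. From Rpl37a to Rpsa the groups are separate with hypoxic-EV higher; Rplp1 and Rpl35a overlap, and Rps27a, Rpl7l1, Rps16 and Rps12 are lower in hypoxic-EV.

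The letters around the annotated start were read for the 63 of 83 members with a RefSeq window (GRCm38.p6, 250 bases before to 50 after the start). The sequence CCGGAAG, the core bound by ETS factors such as GABP, stood on either strand in 26 of the 63 genes (41.3%) and in 9.93% of all 27025 genes with a window. It was found in 14 of 29 members that rose, in 11 of 28 not called and in 0 of 4 that fell, and the other 2 of the 63 were not tested. The following are the windows of members that rose most and hold it, with the motif in capitals, 5′ to 3′ on the gene's strand.
Rps26 chr10:128626704-128626730 -: taatcttccgCCGGAAGgttaaatagt
Rpl6 chr5:121204503-121204529 +: tgcttatagaCCGGAAGccgctgcctt
Rpl37 chr15:5116580-5116606 +: ccaagacccgCCGGAAGtagtttcctg
Rps6 chr4:86857442-86857468 -: taatctacgcCCGGAAGtaacgcccct
Rpl41 chr10:128549208-128549234 -: agtaaggcagCCGGAAGtcgctgtctc
Rps3a1 chr3:86142661-86142687 -: attcttaaagCCGGAAGggcgaaagag

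An unbroken run of at least 8 pyrimidines within 20 bases of the start, on the gene's strand, was found in 33 of the 63 members (52.4%) and in 23.7% of all genes with a window. It stood in 13 of 29 members that rose, 2 of 4 that fell and 17 of 28 not called. Such runs are shown, with the run in capitals, for a pair that rose (Rps6 and Rps26) and a pair that fell (Rpl35a and Rps12), since they occur in both.
Rps6 chr4:86857349-86857378 -: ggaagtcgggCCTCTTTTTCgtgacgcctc
Rps26 chr10:128626485-128626514 -: aagccgccggaTCCTCTTTCgagtcttggc
Rpl35a chr16:33056468-33056497 +: cggggcttgCCTTCCTCTTTCCgccatctt
Rps12 chr10:23787182-23787211 -: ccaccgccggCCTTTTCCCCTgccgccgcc
The sequence AAGATGGC, a core bound by YY1, was found on either strand in 6 of the 63 genes (9.52%, against 3.19% of all genes with a window), 2 of 29 that rose, 2 of 4 that fell and 2 of 28 not called. A longer form that begins with this core was also searched for, and it was found in 0 of the 63 genes. Among all genes with a window it was found in 0.755%, and at so low a share 0 of 63 does not show a difference. The matches describe letters in a window and not binding, and the annotated start need not be the start used in these cells.

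Grouped by place in the ribosome, members of each group were a mix of called and uncalled genes. The groups list only some of the members, and the 5 members that fell are in none of these lists. The share that rose was 25% in the GTPase stalk and on the decoding side and 37.5% around the exit tunnel. It was 60% on the mRNA exit side and 66.7% at the peptidyl transferase centre. Of all genes tested 22.7% rose, and of the tested members 49.4%. In the GTPase stalk, which recruits elongation factors, 1 of 4 genes rose (Rpl12, log2 fold change 0.16), and the stalk genes Rplp0, Rplp1 and Rplp2 had 0.04, -0.08 and 0.09 without a call. Rplp1 had 1159, 1093 and 1114 CPM in the normoxic-EV libraries and 1079.7, 969 and 1129 CPM in the hypoxic-EV libraries. Its hypoxic-EV libraries spread on either side of the lowest normoxic-EV library. At the peptidyl transferase centre 2 of 3 genes rose, Rpl3 and Rpl8 (0.15), while Rpl10, whose protein is loaded last in the maturing subunit, had 0.08 (edgeR adjusted p = 0.163). Around the exit tunnel 3 of 8 genes rose, Rpl23a, Rpl26 and Rpl17. Rpl4, Rpl19, Rpl31, Rpl35 and Rpl39 were not called there, with log2 fold changes from -0.06 to 0.09.

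In the small subunit, 3 of 5 genes of the mRNA exit side and platform rose, Rps26, Rpsa and Rps14, while Rps28 had a log2 fold change of 0.07 without a call. On the decoding and mRNA entry side 1 of 4 genes rose, Rps2, and Rps15 and Rps23 were not called. Rps3, whose protein lies at the entry and also binds NF-kB, stood at 1469.8, 1419 and 1499 CPM in the normoxic-EV libraries and 1568, 1551 and 1614 CPM in the hypoxic-EV libraries. Its groups did not overlap, yet the log2 fold change of 0.11 had an edgeR adjusted p of 0.0562. DESeq2 called it (adjusted p = 0.0143), and over all alternatives its adjusted p ran from 0.0143 to 0.264.

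Among members with roles outside the ribosome, Rpl11, Rpl5 and Rpl23, whose proteins bind and inhibit the p53 ligase MDM2, did not share a call. Differences between their changes were not tested. Rpl11 rose, with 651, 673 and 619.5 CPM in the normoxic-EV libraries and 683, 770.0 and 757 CPM in the hypoxic-EV libraries (log2 fold change 0.19, SE 0.0515, adjusted p = 0.00583 by edgeR). Rpl5, its partner in the particle with 5S ribosomal RNA, had a log2 fold change of 0.08 (SE 0.0469, adjusted p = 0.168 by edgeR), and Rpl23 had -0.05 (SE 0.0522, adjusted p = 0.485 by edgeR). Rpl13a, the subunit of the inflammatory mRNA repressor complex, rose by 0.19 (SE 0.0654, adjusted p = 0.0199 by edgeR), at 35.3, 36.9 and 37.2 CPM in the normoxic-EV libraries and 44.2, 42.3 and 39.1 CPM in the hypoxic-EV libraries. Its call ended without normoxic-EV replicate 1 (edgeR adjusted p = 0.0701), without normoxic-EV replicate 2 (0.0514) and without hypoxic-EV replicate 1 (0.0956), within a range of 0.00909 to 0.0956 over the 6 libraries left out. Rps19, the gene most often mutated in Diamond-Blackfan anaemia, rose by 0.17 (SE 0.0475, adjusted p = 0.00548 by edgeR), and that call ended without normoxic-EV replicate 2 (edgeR adjusted p = 0.0626, range over the 6 libraries left out 0.000627 to 0.0626).

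In the large subunit 22 members were not called, among them Rpl4, Rpl5, Rpl7, Rpl9, Rpl10, Rpl15, Rpl18, Rpl19, Rpl21, Rpl23, Rpl24, Rpl29, Rpl31, Rpl34, Rpl35, Rpl39, Rplp0 to Rplp2, Rpl3l and Rpl22l1, from -0.08 for Rplp1 to 0.24 for Rpl29 on the log2 scale. In the small subunit 14 were not called, among them Rps3, Rps7, Rps10, Rps15, Rps15a, Rps18, Rps20, Rps23, Rps24, Rps27, Rps27l, Rps28 and Rps29, from -0.07 for Rps23 to 0.14 for Rps29. Rpl4, the member with the most counts, ranked 9 among all genes and was one of these. It stood at 3672, 3627 and 3586 CPM in the normoxic-EV libraries and 3755, 3868 and 3840.3 CPM in the hypoxic-EV libraries, without overlap, and its log2 fold change was 0.07 (SE 0.0446, adjusted p = 0.185 by edgeR).

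Per length, the members were highly but unevenly expressed. The deposited FPKM scale divides fragments by library size and by a length that the authors used for each gene. On it the median member tested had a level of 329, against 6.05 for all genes tested. Of the 50 genes with the highest FPKM 13 were members. The order of members depends on that length, which counts and FPKM give as 499 bases for Rplp1 and 6256 for Rps24. In normoxic-EV Rps24 had 1684 CPM but 269 FPKM, beside 1122 CPM and 2246 FPKM for Rplp1. Whether the length is that of the transcripts expressed here was not examined. Rplp1 was highest at 2246 ± 61.3 and 2120.4 ± 169 FPKM in normoxic-EV and hypoxic-EV (SD, n = 3), followed in the large subunit by Rpl4 and Rpl19 at means over all libraries of 1854 and 1011 FPKM. In the small subunit Rps3a1 led at 1585 ± 29.7 and 1927 ± 74.5 FPKM, before Rps15 at 1304 ± 47.6 and 1389 ± 28 FPKM and Rps6 at 753 ± 17.2 and 935 ± 21.7 FPKM. Rplp1 and Rpl4 lay beyond each other's spread in normoxic-EV, as did Rps3a1 and Rps15. Among the 69 members with at least 10000 counts, the coefficient of variation within groups, pooled over both groups for each gene as the root mean square, had a median of 4.55% and ran from 1.38% to 9.64%. Across the 81 tested members, which share libraries, Spearman's rho of the log2 fold change was 0.08 with the mean FPKM, -0.16 with the length the authors divided by and -0.04 with the number of named pseudogenes.

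The paralogs, only some of which are known to replace the canonical protein in certain tissues, ranged from 0 counts to well above the median gene. Rpl10l and Rpl39l, known from the testis, had 0 counts in all 6 libraries. Rpl3l, the striated muscle paralog of Rpl3, had 90 counts in all. The better expressed paralogs were Rps27l at 183 ± 6.08 and 195 ± 7.5 FPKM in normoxic-EV and hypoxic-EV, Rpl7l1 at 54.5 ± 1.87 and 49.1 ± 0.674 FPKM and Rpl22l1 at 21.1 ± 0.686 and 23.2 ± 1.13 FPKM (SD, n = 3). Each was below its partner: Rps27 had 439 ± 20.4 and 451 ± 44.4 FPKM, Rpl7 552 ± 22.6 and 588 ± 38 FPKM and Rpl22 105 ± 5.56 and 126 ± 5.84 FPKM. Rpl7l1 fell while Rpl7 was not called (log2 fold change 0.09, SE 0.0532, adjusted p = 0.173 by edgeR). Rpl22 rose (0.26, SE 0.0505, adjusted p = 0.000276 by edgeR) while Rpl22l1 was not called (0.13, SE 0.0618, adjusted p = 0.0833 by edgeR). Neither Rps27 nor Rps27l was called, at 0.04 and 0.09. The difference between the changes of a pair was not tested.

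Counts of some members were far below those of the others. Of the 83 genes 69 had at least 10000 counts in all, 12 had fewer and 2 had none. Rpl24 had 153 counts, Rps10 286, Rpl29 1266 and Rpl21 1535. There were 312 named pseudogenes of 62 members, 179 of them with counts, and together they held 6.45% as many counts as the members. Rps10-ps2 had 22391 counts beside 286 of Rps10, Rps2-ps10 had 100042 beside 7276 of Rps2, and Rps7-ps3 had 112093 beside 140289 of Rps7. Rpl24 and Rpl29 had few or no counts on a named pseudogene, at 0 and 14. The sources used here do not give the treatment of multi-mapping reads, so levels of Rps2, Rps7, Rps10, Rps18, Rpl21 and the like are uncertain. Rps18 also overlaps Vps52 on the opposite strand, which had 81.0% as many counts, and Rpl35 overlaps Arpc5l, with 18.1%.

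Some pseudogenes of members that rose or fell were called in the direction of the parent, and reads of such a pair cannot be told apart with certainty. Rpl3-ps1, with 58.2% of the count of Rpl3, rose from 307 ± 9.89 to 425 ± 32.2 CPM over 3 libraries (SD), a log2 fold change of 0.47 (SE 0.0528, adjusted p = 3.08e-07 by edgeR), beside 0.58 for Rpl3. Rpl23a-ps3 rose by 0.49, as did its parent Rpl23a, and Rps6-ps4 by 0.44 beside 0.31 for Rps6. Rps12-ps3 fell, at -0.24 beside -0.14 for Rps12. Of 80 named pseudogenes tested 13 rose and 3 fell (16.25% and 3.75%, against 22.7% and 21.5% of all genes tested). The share that rose was thus below that over all genes tested, but only 27 of the 80 had at least 1000 counts. SEs were mostly larger at lower counts, where a change is harder to call, so the lower share does not show smaller changes. The median log2 fold change of the 80 was 0.07. With each pseudogene's counts added to its parent, 39 members rose and 5 fell. A restriction chosen after seeing the data kept the 65 members whose named pseudogenes and opposite-strand neighbours each held less than 10% of their count. Of these 33 rose and 2 fell, with a median of 0.14. Copies under other symbols or with another biotype were not counted. Rpl24, with 153 counts, is thus among the 65, and misassigned reads may remain in them.

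**Figure D4:**
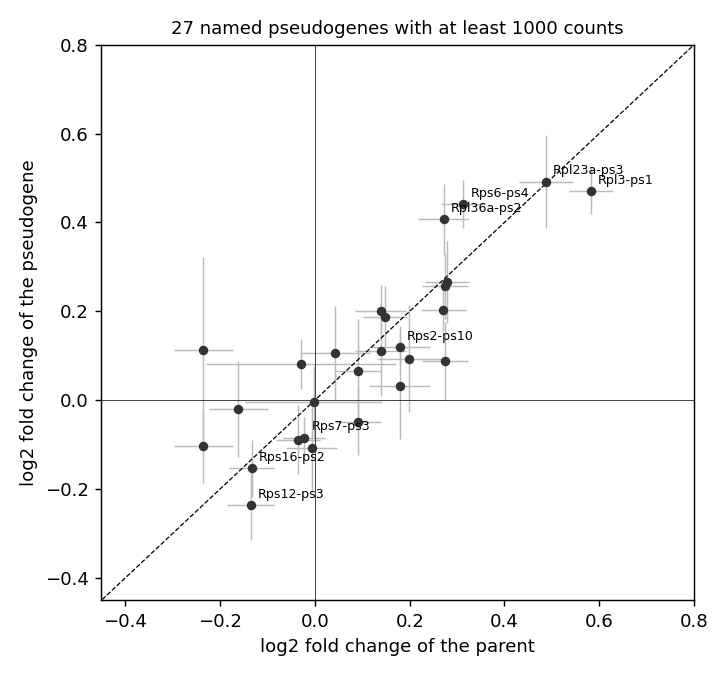
Each point is 1 of 27 named pseudogenes with at least 1000 counts; the x axis is the log2 fold change of its parent gene, the y axis that of the pseudogene, bars are SE and the dashed line marks equal values. Rpl3-ps1 and Rpl23a-ps3 lie at the upper right near the line and Rps12-ps3 at the lower left.

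Other genes with a TOP tract, most of them of the translation machinery, had a higher median change. Of 14 such genes 12 rose and 0 fell, with a median log2 fold change of 0.36, beside 22.7% and a median of 0.00 over all genes tested. Eef1a1, encoding the factor that brings tRNA to the ribosome, rose from 13079 ± 492.5 to 16792 ± 687 CPM over 3 libraries (SD), a log2 fold change of 0.36 (SE 0.0494, adjusted p = 4.5e-06 by edgeR), and Eef2, the translocase gene, by 0.43. Hnrnpa1, an RNA-binding protein gene, and Nap1l1, a histone chaperone gene, had 0.56 and 0.50. Pabpc1, encoding the poly(A)-binding protein, and Npm1, encoding a nucleolar chaperone of ribosome assembly, had 0.35 and 0.36. Subunits of initiation factor 3 rose as well, Eif3e by 0.43, Eif3h by 0.38 and Eif3f by 0.26, and so did Eif4b by 0.31, Eef1b2 by 0.24 and Eef1d by 0.15. Tpt1 (-0.02) and Eef1g (0.10) were not called. Whether this list differs from the ribosomal proteins was not tested.

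Of 13 genes of mTOR and S6 kinase signalling 6 rose and 2 fell (46.2% and 15.4%, against 22.7% and 21.5% of all genes tested), with a median log2 fold change of 0.11. Mtor, its partner gene Rptor, Larp1 and Rps6kb1, the S6 kinase gene, rose by 0.19, 0.20, 0.16 and 0.21. Eif4ebp1, encoding a repressor of cap-dependent translation, rose by 0.28. The inhibitors of the pathway went in both directions: Ddit4 rose by 0.89 (SE 0.0941, adjusted p = 1.41e-07 by edgeR), Tsc1 fell at -0.34 (SE 0.0653, adjusted p = 0.000201 by edgeR) and Sesn2 fell at -0.40 (SE 0.0545, adjusted p = 3.77e-06 by edgeR). Mlst8, Rheb, Rps6kb2, Eif4ebp2 and Tsc2 were not called.

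Of 9 tested genes for dedicated partners of ribosomal proteins 2 rose and 1 fell (22.2% and 11.1%, against 22.7% and 21.5% of all genes tested), with a median of 0.00, so the share that rose was near the background. Heatr3, which encodes the nuclear importer of RPL5, rose by 0.43 (SE 0.0612, adjusted p = 6.92e-06 by edgeR). Mdm2 rose by 0.25 (SE 0.0772, adjusted p = 0.0116 by edgeR) with overlapping groups, and Rpf2, an assembly factor of the 5S particle, fell at -0.16 (SE 0.0567, adjusted p = 0.0233 by edgeR). Grwd1, the chaperone gene of RPL3, had 0.14 without a call, and Tsr2, that of RPS26, had -0.15, although Rpl3 and Rps26 rose. Bccip, Rrs1, Pdcd2l and Ltv1 were not called either, and Pdcd2 had 0 counts. Of 4 ribosomal proteins that the symbol rule leaves out, 0 were called: the fusion gene Fau had -0.13 (SE 0.0534, adjusted p = 0.0502 by edgeR), Rack1, a scaffold on the small subunit, -0.03 and Rpl36al -0.26. In that group of 4, edgeR gave an unadjusted p under 0.05 for 1 and DESeq2 called 0.

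**Figure D5:**
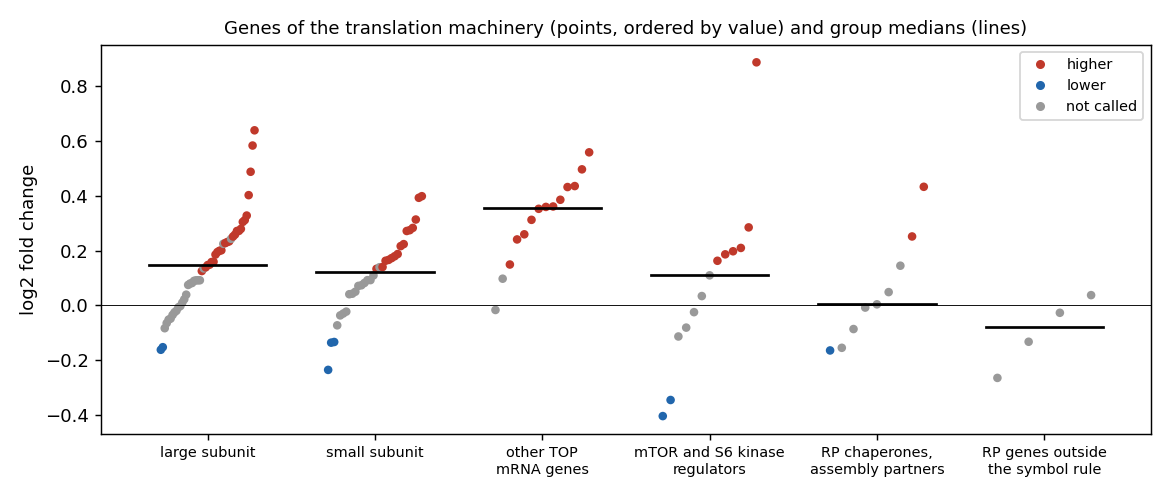
Each point is the log2 fold change of a gene, in order of value within its list, and lines are list medians; red points rose, blue fell and grey were not called. The other TOP mRNA genes have a median of 0.36 against 0.15 and 0.12 for the large and small subunit, and the list outside the symbol rule, with Fau, holds no call.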

How the data were processed

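RNA of 6 samples was poly(A)-enriched and read in pairs with TruSeq libraries, per the labels' protocols. HISAT2, featureCounts, DESeq2 and GRCm39 are named in the submitters' processing notes; their versions, the annotation, and strand and multi-mapping settings are not given in these sources. Gene counts, whole numbers as deposited, were used for all tests, and the authors' deposited FPKM values for levels between genes. A deposited table of the authors' comparison gives log2 fold changes and p-values, and only its size and membership were used. Groups follow the treatment label.

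The tests used edgeR 4.0.16 under R 4.3.3, with filterByExpr (minimum count 10, minimum total 15), TMM scaling, the two-sided quasi-likelihood F-test and Benjamini-Hochberg adjustment over all 13303 genes tested, called under 0.05. The SE is the log2 fold change divided by the square root of F. The test was checked on simulated counts. Values after ± are SD over 3 libraries. Members and lists were chosen with earlier results of these data known, so no list was tested and no p was adjusted over a list. Members named with full values were, per subunit, the 8 largest rises, up to 5 largest falls and the 3 highest FPKM, plus paralogs and members with well known roles; others are given by range, and some single-gene results are not reported here. Overlapping genes were found from the coordinates of the count table. RefSeq windows were matched by symbol; no protein sequences were used here.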

Additional observations from a re-analysis of the deposited data

How the results depend on the processing

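With RLE scaling 39 members rose and 5 fell, with library totals alone 41 and 5, and with TMM computed without the members 40 and 5. DESeq2 called 41 members higher and 3 lower (1 lower in the large subunit), and 4887 genes in all against 5877. Without a low-count filter 2 fell (1 large, 1 small). Among the 65 members with little named pseudogene or overlap count, chosen after seeing the data, 2 fell (1 large, 1 small). Leaving out 1 library at a time gave 25 to 42 members higher (large 16 to 24, small 9 to 18) and 2 to 5 lower (large 0 to 2, small 1 to 3), with a median log2 fold change of 0.12 to 0.16. The difference in the share of counts stayed between 0.479 and 0.599 percentage points, and that in the ratio of large to small subunit counts between -0.0114 and -0.00203, but it was 0.00471 with pseudogene counts added; the cause was not tested. With the replicate number as a block 38 members rose and 5 fell. Same-numbered libraries did not deviate together (r of -0.02, -0.05 and -0.03, against -0.08 to 0.10 for differently numbered pairs). These values cannot show whether same-numbered libraries were prepared together. Of 25 named members that were called, 18 kept their call in every alternative, and none of 41 changed direction past the threshold. Counts limit Rpl24, Rps10 and Rpl3l most.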

Other observations

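Of 10 protein-coding rows that are named like ribosomal proteins but fall outside the symbol rule, chosen here after their values were seen, 6 were tested. Rps18-ps5 had 16451 counts, more than the 6421 of Rps18 itself. It stood at 135, 119 and 131 CPM in the normoxic-EV libraries and 141, 165 and 154 CPM in the hypoxic-EV libraries, and rose by 0.26 on the log2 scale (SE 0.0584, edgeR adjusted p = 0.00112), while Rps18 was not called. Rpl9-ps6 had 9342 counts and rose by 0.14 (edgeR adjusted p = 0.0311), while Rpl9 was not called. Rps27rt, a retrotransposed copy of Rps27, was at 68.5, 30.5 and 27 CPM in the normoxic-EV libraries and 53.3, 33.1 and 32.7 CPM in the hypoxic-EV libraries, so that replicate 1 was the highest in each group.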
